A study of Mus musculus with 18 samples.

Results

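The GDNF, RET and FGF branching signal genes were 10 genes chosen by name from the 78239 genes listed in the count tables: *Gdnf*, *Ret*, *Gfra1*, *Gfra2*, *Etv4*, *Etv5*, *Spry1*, *Wnt11*, *Fgf10* and *Fgf7*. Each was found once by its Ensembl identifier in the GENCODE mouse annotation. In the developing kidney, the mesenchyme secretes GDNF, which binds its co-receptor GFRA1 on the ureteric bud and activates the receptor tyrosine kinase RET, and the bud then grows out and branches. RET and FGF receptor signals converge on the ETS transcription factors ETV4 and ETV5, WNT11 from the bud tip keeps *Gdnf* expressed in the mesenchyme, and Sprouty proteins restrain the pathway. Branching has ended in the adult kidney, where the same genes have been described in tubule and stromal cells.

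Kidney RNA was sequenced from 18 wild-type CD-1 mice at 6 weeks of age, 1 library per mouse: 5 low protein (LP) males, 5 normal protein (NP) males, 5 LP females and 3 females on NP. These terms name the diet of the dam through gestation and lactation, and all offspring, LP and NP alike, ate the NP diet after weaning. All mice had received cationic ferritin before part of the left kidney was taken. The paper describes a filtration measurement with FITC-sinistrin in the adult mice, but reports it for only some of them. Whether each sequenced mouse received FITC-sinistrin is not given by the labels. Male kidneys were taken sooner after the last ferritin injection than female kidneys, so that sex and this interval cannot be told apart. CD-1 is an outbred stock, and the labels give no litter. The authors name fewer litters for the adult part of the study than the 5 mice of a full group. Some mice of these groups were therefore littermates, and the tests here count mice, not dams.

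The libraries held 14050486 to 23562411 reads on genes. Expression of *Ddx3y* and *Uty* against *Xist* matched the labelled sex in 18 of 18 libraries. The authors had already checked sex with *Uty* and *Ddx3y* and left out a sample that did not match, so this is no independent check. The markers of proximal tubule, thick ascending limb, distal tubule, principal cell and podocyte lists were present in every group. LP female 1, LP female 2 and NP female 3 formed the first branch to separate from the other 15 libraries in a clustering of all genes, so the fitted values of members in females are also given without them. Those female fits rest on LP female 3, LP female 4, LP female 5, NP female 1 and NP female 2 only, too few mice to limit a difference closely. In whole tissue, fewer cells of a type and less RNA per cell cannot be told apart.

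The members differed widely in level. Levels are compared between genes as TPM, which divides the reads of a gene by its exonic length and scales each library to the same total. *Spry1* had the highest median TPM of the 18 libraries at 10.9, followed by *Etv5* at 8.68, *Gfra1* at 4.07 and *Etv4* at 1.91. The other 6 members were near the lower end of what this depth resolves, with median TPM of 0.554 for *Wnt11*, 0.441 for *Fgf10*, 0.319 for *Ret*, 0.157 for *Gfra2*, 0.0958 for *Fgf7* and 0.0653 for *Gdnf*. *Etv4* was above *Wnt11* in 18 of 18 libraries and *Gfra1* was above *Etv4* in 16 of 18. Several neighbours in the order were not separated: *Spry1* was above *Etv5* in 8 of 18 libraries, *Wnt11* above *Fgf10* in 10, *Gfra2* above *Fgf7* in 9 and *Fgf7* above *Gdnf* in 8.

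**Figure D1:**
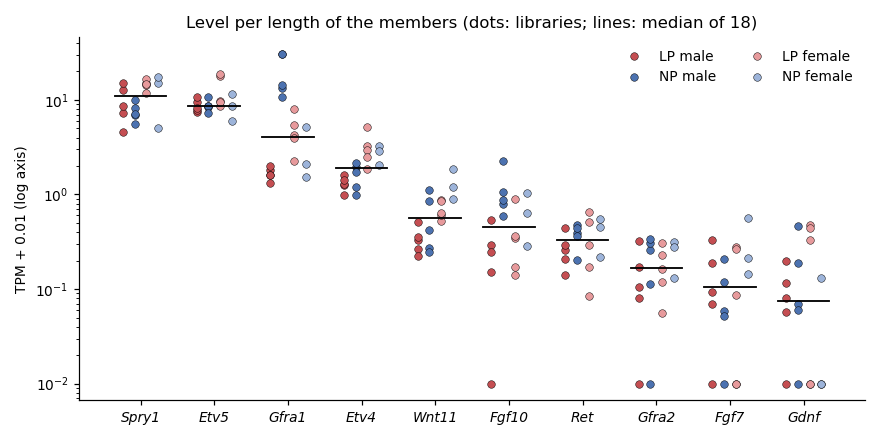
TPM plus 0.01 on a log axis for each member, ordered by its median (line) over the 18 libraries (dots, coloured by group). *Gfra1* spanned the widest range of the 4 most abundant members, from 1.31 TPM in an LP male to 30.8 TPM in an NP male.

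The filter of at least 10 counts in every library of a fit was passed by 4 members in males (*Gfra1*, *Etv4*, *Etv5* and *Spry1*) and by 5 in females, where *Wnt11* was added. The study states a filter of at least 10 reads per sample. Its candidate-gene analysis, adjusted within gene subcategories, still reported *Fgf10* as lower in LP males. *Gdnf*, *Ret*, *Gfra2*, *Fgf10* and *Fgf7* did not pass in either sex. Members outside a fit are described by their counts and by an exact two-sided permutation test of log2(normalized count + 1), where a normalized count is the count divided by the size factor of its library. There were 20 such tests, for 10 members in 2 sexes, and their p-values are unadjusted. The smallest p the test allows is 0.00794 for 5 males against 5 and 0.0179 for 5 females against 3.

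**Figure D2:**
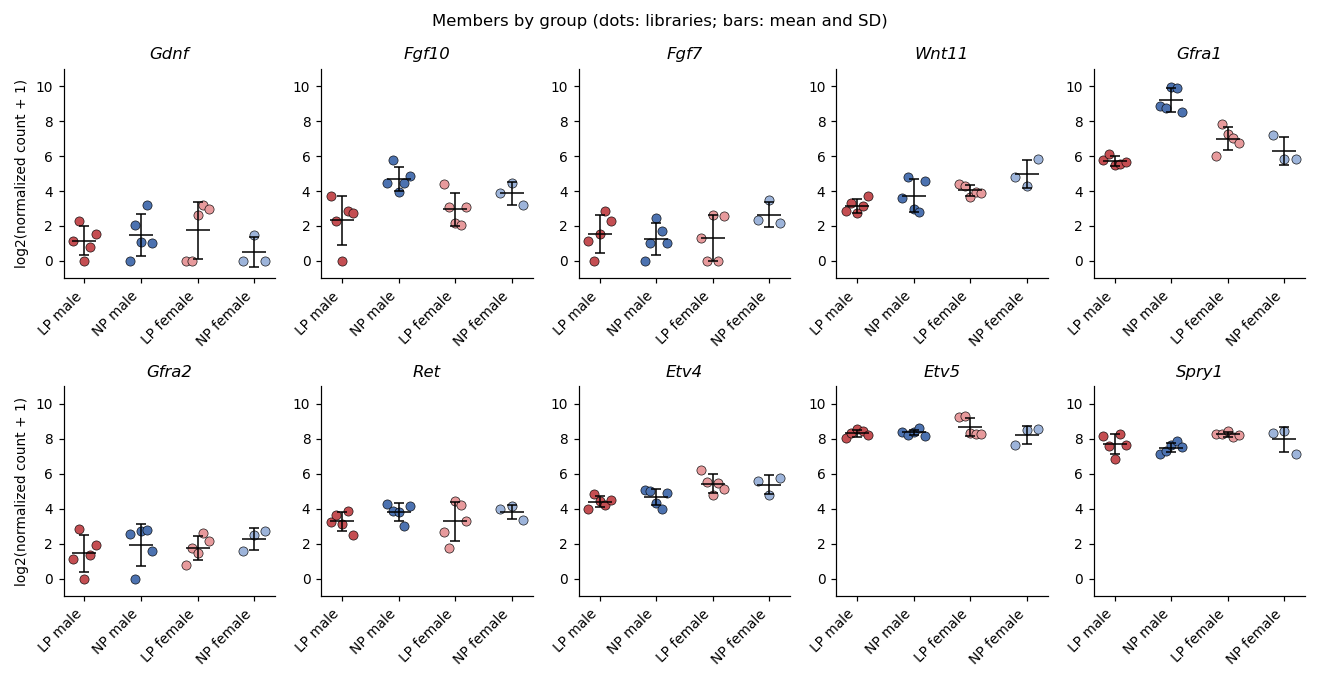
log2(normalized count + 1) of each member (y axis) in the 4 groups (x axis), with dots for libraries and bars for the mean and SD. The LP and NP males do not overlap for *Gfra1* and *Fgf10*, and the diet groups overlap for every member in females.

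Among the ligands in males, the diet groups differed most for *Fgf10*, which encodes the mesenchymal ligand of the FGFR2 IIIb receptor. LP males had 12.4, 3.80, 0, 6.18 and 5.71 normalized counts of *Fgf10*, and NP males had 20.8, 52.9, 14.5, 21.1 and 28.2. No LP male reached the lowest NP male. In raw reads this was 0 to 10 per LP male library and 13 to 51 per NP male library, and the 0 in LP male 3 allows up to 3 counts. LP males were lower by 2.38 on the log2(normalized count + 1) scale (exact permutation p = 0.00794, n = 5 and 5), the smallest p possible. Among the 13181 genes that passed the filter in males, the diet groups did not overlap for 0.713%, a share to which *Fgf10* itself does not belong. When edgeR was run with no filter on low counts, the log2 fold change of *Fgf10* was -2.28 (SE 0.57) with an adjusted p of 0.350, so that the difference did not pass across all genes.

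*Fgf10* in females did not separate by diet. LP females had 19.9, 7.39, 3.51, 3.11 and 7.59 normalized counts and NP females had 13.99, 21.3 and 8.12, and the difference was -0.90 on the log2 scale (exact permutation p = 0.161, n = 5 and 3). The diet effect in females minus that in males came to 1.504 on the log2 scale (SE 0.92) in edgeR with no filter, at an adjusted p of 0.975, so that the sexes were not shown to differ. *Fgf10* is expressed in stroma and in fat, and the summed level of 4 adipocyte markers varied between male libraries. It was 30.4 CPM (counts scaled to the library total) in LP male 4, 20.1 in NP male 2, 23.9 in NP male 3 and under 1 CPM in the other 7 males. *Fgf10* was highest in NP male 2 and lowest among NP males in NP male 3, and LP male 4 was below all NP males. The summed level of the 5 fibroblast markers ran from 75.4 to 174.6 CPM in LP males and from 66.2 to 107 CPM in NP males, which overlap. The part of fat or stroma in the *Fgf10* values was not tested.

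The 250 bases before the start of the canonical transcripts of *Fgf10* and *Gfra1*, the members whose male diet groups did not overlap, are shown here from the GRCm39 genome. The *Fgf10* stretch lies at chr13:118850665-118850914 on the + strand, holds no annotated exon and has 53.2% G or C. The *Gfra1* stretch lies at chr19:58444347-58444596 on the - strand, overlaps an exon of the antisense long noncoding RNA gene *Gm41876* and has 51.2% G or C. Capitals mark GGAA, the core that ETS factors such as ETV4 and ETV5 bind, or its complement TTCC.
Fgf10: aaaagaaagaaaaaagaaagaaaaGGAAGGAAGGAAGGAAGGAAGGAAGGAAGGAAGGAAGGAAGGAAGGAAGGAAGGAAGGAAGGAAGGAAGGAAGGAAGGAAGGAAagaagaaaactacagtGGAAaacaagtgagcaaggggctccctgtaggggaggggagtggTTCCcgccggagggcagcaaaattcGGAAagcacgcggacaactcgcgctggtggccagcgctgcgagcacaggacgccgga
Gfra1: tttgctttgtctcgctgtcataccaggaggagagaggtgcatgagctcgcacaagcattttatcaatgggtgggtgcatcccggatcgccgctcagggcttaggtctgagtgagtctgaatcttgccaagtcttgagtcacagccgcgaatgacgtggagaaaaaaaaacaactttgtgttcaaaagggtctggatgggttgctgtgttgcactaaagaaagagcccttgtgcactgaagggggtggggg

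The *Fgf10* stretch held 24 copies of GGAA on either strand, of which 21 stood in a row as a simple repeat. Among the same stretches of 21770 protein-coding genes the median was 3 copies, 93.9% held at least 1, and no gene had a longer row. The *Gfra1* stretch held no copy, and among the members *Gdnf* also held none. Longer motifs were searched on both strands in all 10 members: CCGGAA, which contains GGAA, was found in *Wnt11* (12.4% of all stretches hold it), AGGTCA, a part of nuclear receptor sites, in *Fgf7* (13.1%) and TATAAA in *Etv5* (11.9%). These are matches of letters in a window and do not show binding.

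*Gdnf*, the ligand that starts outgrowth of the bud, was close to undetected. It had 45 reads over the 18 libraries, none in 6 of them and at most 10 in 1, and a count of 0 allows up to 0.127 to 0.214 CPM at this depth. NP males had 0 to 8.19 normalized counts and LP males 0 to 3.80, and in LP females 2 libraries had 0 and the other 3 had 5.27, 8.29 and 6.90. *Fgf7*, another mesenchymal FGF, had 56 reads in all and at most 11 in a library. Neither differed by diet beyond the spread (exact permutation p = 0.675 and 0.643 in 5 and 5 males and 0.250 and 0.196 in 5 and 3 females for *Gdnf* and *Fgf7*), and at counts this low a difference could have been missed at this depth.

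*Wnt11*, the tip-derived Wnt ligand, had lower values in LP mice that did not pass the test. LP females had 19.9, 18.9, 11.4, 14.5 and 13.8 normalized counts and NP females had 27.0, 18.5 and 55.7. The groups overlapped, since NP female 2 was below 2 LP females. The fitted log2 difference was -1.10 (SE 0.38), at an unadjusted p of 0.0172 and an adjusted p of 0.886 in the edgeR quasi-likelihood test, and it was -0.53 without NP female 3, which had the highest value, and -0.80 (SE 0.35, adjusted p = 0.972) without the 3 females that stand apart. In males, 8.18 ± 2.64 normalized counts (SD, n = 5) in LP and 14.7 ± 9.72 (SD, n = 5) in NP did not differ in the exact permutation test (p = 0.254).

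*Gfra1*, the co-receptor that presents GDNF to RET, was the only member called by diet in either sex. The study had already reported it as lower in LP males, from these libraries and with less GFRA1 staining in their kidney cortex. By qRT-PCR the study listed it among male genes that differed or trended that way. A gene was called when its adjusted p was under 0.05 and its change at least 1.5-fold. LP males had 54.5, 69.7, 44.2, 44.8 and 49.4 normalized counts of *Gfra1*, and NP males had 455, 436, 997, 947 and 367. The groups did not overlap, the LP males lay close together, and NP male 3 and NP male 4 were above the other 3 NP males. The fitted difference was -3.60 on the log2 scale (SE 0.32), a 12.2-fold lower level in LP males, with an adjusted p of 4.46e-04 in edgeR and an exact permutation p of 0.00794 (n = 5 and 5). In males 1 of 4 members tested was called, against a background of 0.0379% of all 13181 genes, or 5 genes, all of them lower in LP males. The fold change lay between -3.75 and -3.39 when each of the 10 males was left out in turn, and *Gfra1* stayed called each time, with a highest adjusted p of 0.0043.

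In females, *Gfra1* was not called and its diet groups overlapped. LP females had 64.2, 222, 154, 128 and 108 normalized counts, and NP females had 149, 55.6 and 56.8. They differed by 0.62 on the log2 scale (SE 0.46, edgeR adjusted p = 0.886). The value was 0.32 (SE 0.42, adjusted p = 0.972) without the 3 females that stand apart, and with 1 female left out at a time it ran from 0.36 without LP female 2 to 1.26 without NP female 1. The level in the 4 groups was thus lowest in LP males at 52.5 ± 10.4 normalized counts (SD, n = 5), followed by NP females at 87.1 ± 53.5 (SD, n = 3), LP females at 135 ± 58.7 (SD, n = 5) and NP males at 640 ± 305 (SD, n = 5). The values of neighbouring groups in that order overlapped, except that every NP male was above every mouse of the other groups. 

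The interaction of diet and sex for *Gfra1*, the female diet effect less the male one, was 4.21 (SE 0.59, edgeR adjusted p = 0.0158) and was called as 1 of 4 members tested, against 0.0158% of 12665 genes. This call depended on the fit. The difference was 3.62 (SE 0.55) with an adjusted p of 0.0633 when reads in stretches shared with antisense genes were kept, 3.92 with an adjusted p of 0.0844 without the 3 females that stand apart, 3.99 with an adjusted p of 0.0705 without NP female 3 and 4.15 with an adjusted p of 0.0504 without LP male 3. With the replicate number as a block it was 4.18 with an adjusted p of 0.135. The size of the difference stayed at 3.6 or more on the log2 scale in each of these fits.

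**Figure D3:**
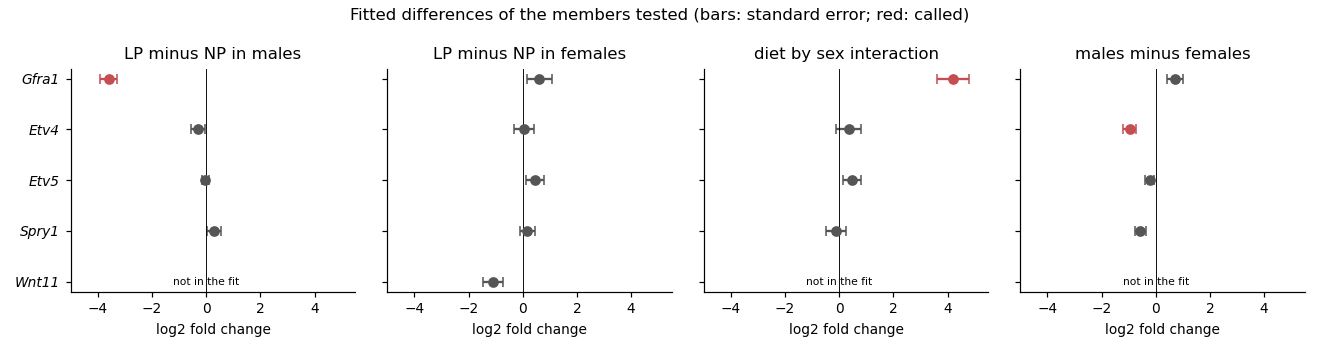
log2 fold change (x axis) with its standard error for each member that passed the filter (rows) in the 4 comparisons (panels), with calls in red. *Gfra1* was called in males at -3.60 and in the interaction at 4.21, and *Etv4* in males minus females at -0.96.

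*Gfra1* lies on chromosome 19 of GRCm39, from 58223212 to 58444346 on the - strand. Exons near its 3′ end overlap the long noncoding RNA gene *Gm16277* and its first exon overlaps *Gm41876*, both on the + strand, over 1048 and 392 of its 6367 exonic bases. The library kit did not keep strand, so a read in these stretches is given to neither gene in the unstranded counts. The number of such reads was recovered by comparing the stranded columns of the files with the unstranded one. LP males had 14, 19, 23, 17 and 24 reads in the shared stretches, and NP males had 196, 116, 331, 235 and 261. These reads separated the male groups as the counted reads did, and with them included the difference was -3.62 on the log2 scale (SE 0.28, edgeR adjusted p = 1.99e-04).

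In females the shared stretches behaved differently in 1 library. NP female 3 had 120 shared reads beside 49 counted reads, or 245 per 100, whereas the other 17 libraries had 21.1 to 73.2 per 100. NP female 1 had 109 shared reads and NP female 2 had 15, and LP females had 31 to 73. With shared reads included, the female fold change of *Gfra1* was -0.01 (SE 0.45) in place of 0.62. Outside the shared stretches, *Gm16277* had 0 to 1 reads in NP females and 0 to 3 in LP females. It had 0 in every LP male and 0 to 13 in NP males. *Gm41876* had 0 in both female groups, 0 to 1 in LP males and 0 to 3 in NP males. Which of the overlapping genes the shared reads of NP female 3 came from cannot be told apart. In that library 36.1% of reads were not counted to a gene, the highest share. *Gm59379*, a long noncoding RNA gene on the *Gfra1* strand 2166 bases past its 3′ end, had 0 to 1 reads in LP males, 5 to 24 in NP males and 0 to 3 in both female groups.

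**Figure D4:**
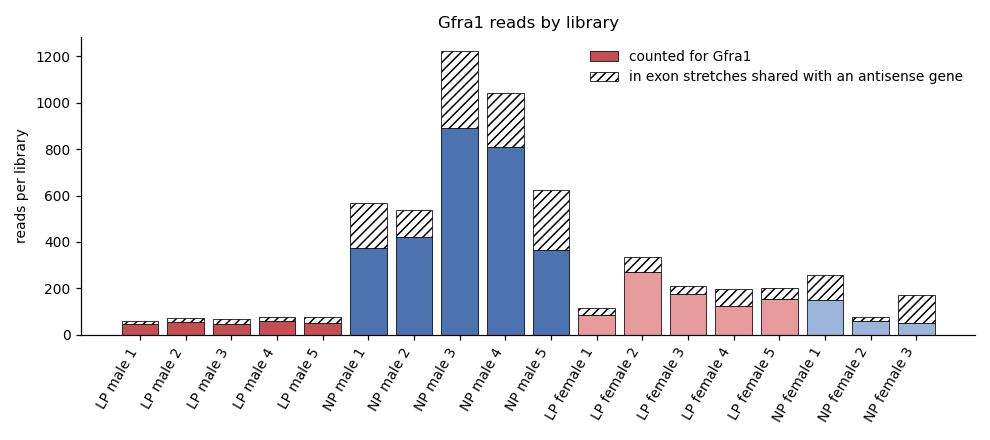
Reads per library (y axis, bars from 0) counted for *Gfra1* (solid) and lying in exon stretches shared with an antisense gene (hatched). NP males stand above all other libraries in counted reads, and in NP female 3 the 120 shared reads exceed the 49 counted ones and the 116 shared reads of NP male 2.

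Of the genes around *Gfra1*, those abundant enough to be tested were not called in males. Of the 67 annotated genes that lie within 1 Mb of it, 9 passed the filter, and edgeR called none of these 9. *Gm59379*, given above, was too low to be among them. Their log2 fold changes ran from -0.19 for *Emx2os* to 0.32 for *Hspa12a*, with adjusted p-values of 0.9996 for both.

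**Figure D5:**
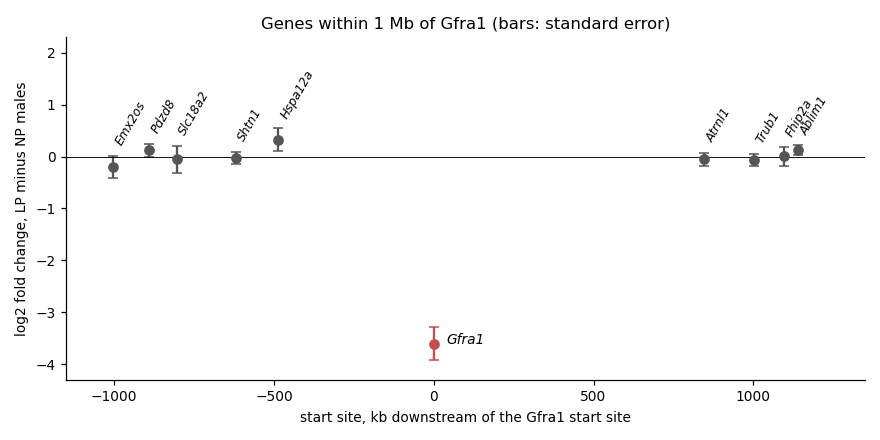
log2 fold change of LP minus NP males (y axis) with its standard error against the distance of each start site from that of *Gfra1* in kb (x axis). The 9 neighbouring genes lie between -0.19 and 0.32, and *Gfra1* at -3.60.

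*Gfra2*, the co-receptor preferred by neurturin, had 0 to 5 reads in every library and overlapped between the diet groups in both sexes (exact permutation p = 0.540 in 5 and 5 males and 0.357 in 5 and 3 females). *Ret*, the receptor itself, had 3 to 24 reads in a library. LP males had 8.67, 11.4, 7.69, 13.9 and 4.75 normalized counts of *Ret* and NP males had 18.4, 13.5, 13.4, 7.02 and 17.1. The medians were 8.67 and 13.5, the groups overlapped, and the difference of -0.54 on the log2 scale did not pass (exact permutation p = 0.143, n = 5 and 5). In females the difference was -0.54 (exact permutation p = 0.518, n = 5 and 3), with LP females between 2.46 and 21.1 and NP females between 9.28 and 16.7. The lowest LP females were LP female 2 at 2.46 and LP female 1 at 5.35, and without the 3 females that stand apart *Ret* passed the filter and its fitted log2 difference was -0.04 (SE 0.45, edgeR adjusted p = 0.995).

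Neither transcription factor downstream of RET was called by diet in either sex here, where p-values were adjusted over all genes tested. The candidate-gene analysis of the study, adjusted within gene subcategories, reported *Etv5* as higher in LP females. *Etv4* had 14.9, 27.9, 21.1, 17.8 and 21.9 normalized counts in LP males and 33.1, 32.2, 19.01, 15.2 and 29.2 in NP males. The groups overlapped, and the fitted log2 differences were -0.31 (SE 0.27, edgeR adjusted p = 0.9996) in males and 0.05 (SE 0.38, edgeR adjusted p = 0.982) in females. Without the 3 females that stand apart the female value was -0.11 (SE 0.39, adjusted p = 0.988). *Etv5* varied least for its level among the 4 members tested in males, with 322 ± 45.1 normalized counts (SD, n = 5) on LP and 331 ± 40.2 (SD, n = 5) on NP, and differed by -0.03 on the log2 scale (SE 0.12, edgeR adjusted p = 0.9996).

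*Etv5* in females was highest in LP female 1 and LP female 2, which stand apart. These had 599 and 622 normalized counts, and the other 3 LP females had 326, 312 and 311. NP females had 201, 364 and 380, and the 380 of NP female 3, which also stands apart, was close to the 364 of NP female 2. The fitted log2 difference was 0.44 (SE 0.33, edgeR adjusted p = 0.886) with all females and 0.14 (SE 0.26, adjusted p = 0.974) without the 3 libraries. The highest *Etv4* value, 73.4 normalized counts, was also that of LP female 1. The part of these libraries' other differences in this was not tested.

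*Spry1*, the Sprouty gene that restrains RET signalling, had 286, 190, 116, 314 and 200 normalized counts in LP males and 141, 160, 200, 231 and 182 in NP males. These differed by 0.29 on the log2 scale (SE 0.25, edgeR adjusted p = 0.9996). In females, LP mice had 271 to 354 and NP mice had 328, 344 and 142, with NP female 3 lowest, and the fitted log2 difference was 0.17 (SE 0.27, edgeR adjusted p = 0.935). Its sign turned without the 3 females that stand apart, to -0.14 (SE 0.18, adjusted p = 0.972), and without NP female 3 alone, to -0.12. None of the 5 members tested in females was called, and none of the 13510 genes was (0%). At an unadjusted p under 0.05, 1 member (*Wnt11*) and 4.17% of all genes passed in females, and the DESeq2 Wald test called none of the 5 members and 9 genes (0.0666%).

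Males and females differed for 1 of 4 members tested, against a background of 18.7% of 12665 genes. *Etv4* was lower in males, at -0.96 on the log2 scale (SE 0.23, edgeR adjusted p = 0.00325). It had 14.9 to 33.1 normalized counts in the 10 males and 26.3 to 73.4 in the 8 females, which overlap. The difference was -0.67 (adjusted p = 0.0297) without the 3 females that stand apart. Within NP mice it was -0.79 (adjusted p = 0.105) and within LP mice -1.14 (adjusted p = 0.0143), so that it was called in LP mice and not in NP mice, a difference in call whose own test (the interaction of 0.36, SE 0.46, adjusted p = 0.977) did not pass. Markers of other segments moved with sex too: of the 6 principal cell markers 4 were called lower in males and of the 3 distal convoluted tubule markers 3, and their part in the value of *Etv4* was not tested.

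*Spry1* was lower in males by a log2 fold change of -0.57 (SE 0.19, edgeR adjusted p = 0.0251), which is under 1.5-fold, and it was -0.72 (adjusted p = 0.00722) and called without the 3 females that stand apart. *Wnt11* did not pass the filter between the sexes. With looser filters it was called lower in males, at -1.07 (SE 0.33, edgeR adjusted p = 0.0163) with a mean of at least 10 counts and at -1.06 (adjusted p = 0.0183) with filterByExpr, and it was not called with no filter, at -1.02 (adjusted p = 0.0577). *Etv5* was not called, at -0.23 (SE 0.17, edgeR adjusted p = 0.314), and its sign turned to 0.09 (SE 0.13, adjusted p = 0.623) without the 3 females.

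For *Gfra1* the sex difference ran in opposite directions on the 2 diets. Over both diets it was 0.71 (SE 0.28, edgeR adjusted p = 0.0541) and was not called. Males were higher within NP mice, at 2.82 (SE 0.46, adjusted p = 3.19e-04), and lower within LP mice, at -1.39 (SE 0.37, adjusted p = 0.0139), against backgrounds of 17.6% and 11.9% of genes called. Every NP male was above every NP female, and every LP female but LP female 1 was above every LP male. Both values share the libraries of the diet by sex interaction given above and are no separate evidence of it.

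A list of 84 other genes of the pathway, in 9 roles, was followed in the same fits. By diet, edgeR called none of the 60 tested in males, none of the 63 in females and none of the 59 in the interaction. At an unadjusted p under 0.05 there were 5, 4 and 6 of them, or 8.33%, 6.35% and 10.2%, against 3.84%, 4.17% and 4.02% of all genes. The median log2 fold change of the list was 0.05 in males and 0.06 in females, against -0.0039 and -0.013 over all genes tested.

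The genes of each role with the smallest p give the size of what was seen. Of the 4 genes in the role of co-receptors and *Ncam1*, only *Ncam1* passed the filter in either sex. *Ncam1*, a cell adhesion molecule that can bind GDNF with GFRA1, averaged 109 ± 39.0 normalized counts in the 5 LP males (SD) against 50.0 ± 14.5 in the 5 NP males, which differed by 1.14 on the log2 scale (SE 0.27, edgeR adjusted p = 0.812). The DESeq2 Wald test called it, as 1 of 60 list genes, where 0.114% of all genes were called. The female averages of *Ncam1* were 49.4 ± 17.4 normalized counts (SD) over 5 LP mice and 79.3 ± 21.3 over 3 NP mice, at -0.70 (SE 0.36, edgeR adjusted p = 0.886). *Nrtn*, a GDNF family ligand and the only 1 of the 3 listed that was tested in males, was at -0.18 in males and -0.55 in females.

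Among the upstream regulators, *Pax8* was at -0.34 (SE 0.10, edgeR adjusted p = 0.9996) in males and *Gata3*, which acts upstream of *Ret* in the nephric duct, at -0.64 (SE 0.16, adjusted p = 0.886) in females. The candidate-gene analysis of the study, adjusted within subcategories, reported both as lower: *Pax8* in LP males and *Gata3* in LP females. For *Gata3* it also reported a lower level by qRT-PCR. *Gata3* had 194 to 264 normalized counts in LP females and 351 to 414 in NP females, which do not overlap, as was so for 3.07% of the genes tested in females. *Dusp4*, a phosphatase that inactivates MAP kinases, was at 0.87 (SE 0.22, adjusted p = 0.886) in females. In the remaining roles, the male values were -0.16 for *Fgf9*, 0.18 for *Fgfr1*, 0.16 for *Gab1*, 0.13 for *Nras*, 0.55 for *Spred3* and 0.54 for *Mmp14*. The female values were -0.59 for *Fgf9*, -0.14 for *Fgfr2*, 0.24 for *Shc1*, -0.46 for *Hras* and -0.31 for *Mmp14*, and none of these passed.

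Between the sexes, 12 of 59 list genes were called, or 20.3% against 18.7% of all genes, with 5 higher and 7 lower in males. The higher ones included *Etv1* at 1.48 (SE 0.23), *Met*, the hepatocyte growth factor receptor, at 0.92 (SE 0.12), the kinase *Braf* at 0.83 and *Dusp4* at 0.81. The lower ones were *Fgf9* at -0.95 (SE 0.16) and 6 upstream regulators. These were *Six4* at -0.92, *Slit2* at -0.91, *Sall1* at -0.87, *Wt1* at -0.80, *Gata3* at -0.66 and *Foxc2* at -0.59. *Wt1* is expressed in adult podocytes, and 3 of the 4 podocyte markers were also called lower in males, and their part in the value of *Wt1* was not tested. *Etv1* and *Etv4*, which belong to the same ETS subfamily, thus had opposite signs between the sexes.

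The genes whose values ran most like those of the members were found over the 18 libraries after the mean of each group was removed, by Spearman correlation of log2(CPM + 1) among 12665 genes. For *Gfra1* they were *Pknox2* (0.81), *B4galt4* (0.80), *Gen1* (0.77), *Stau2* (0.77) and *Gm14320* (0.77). For *Etv4* they were *Enkd1* (0.91) and *Gm15427* (0.91), for *Etv5* *Hnf4g* (0.94) and *Rhobtb1* (0.94), and for *Spry1* *Dsn1* (0.88) and *Meis2* (0.87). The points share their libraries, and the 3 females that stand apart are among them. These genes were picked as the highest of 12665 correlations over 18 libraries. No test was made of them, and they do not show shared regulation.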

How the data were processed

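Poly(A)-selected, non-directional kidney RNA libraries were sequenced, 1 per mouse. The authors removed samples of low RNA quality, used STAR to align the reads (GRCm39, GENCODE vM36; version not given in the sources used here) and deposited raw read counts per gene, of which the unstranded column was used. Symbols came from GENCODE vM39 and matched 78168 of 78239 genes. Reads on genes numbered 14050486 to 23562411 per library, and 28.6 to 36.1% of reads were not counted to a gene. Limits at a count of 0 cover counting error only.

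Counts were compared within each sex, and in 1 model of all 4 groups for the interaction and the sex contrast (NP and LP means weighted equally), in edgeR 4.0.16 under R 4.3.3 by its quasi-likelihood test, with TMM factors, Benjamini-Hochberg adjustment and a minimum of 10 counts in each library fitted. The study used DESeq2, which was an alternative here (1.42.0). Calls needed an adjusted p under 0.05 and 1.5-fold. Normalized counts used DESeq2 size factors over 18 libraries. Scripts were tested on simulated data. Replicates within groups differed by more than sampling noise in 33 of 33 pairs (chi-square per degree of freedom 12.1 or more). The labels name no litters, so p-values measure the spread between these mice, not that between litters.

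The members and gene lists were chosen with earlier results of these data known. Genes named were all members, list genes called in any comparison or with the smallest p of their role in each sex, the 5 (*Gfra1*) or 2 (other members with 10 counts in every library) most correlated genes, and tested genes within 1 Mb of *Gfra1*. *Gm16277*, *Gm41876* and *Gm59379* were added after their values were seen, as were the GGAA search and the within-diet sex contrasts. Of 17 marker lists, none differed by diet without overlap in either sex, and no marker that passed the filter was called by diet. In males the filter left 6 of 6 proximal tubule markers. It left 0 of 4 adipocyte, 1 of 4 nephron progenitor and 1 of 5 urothelium markers, so most of these could not be called. Markers at 0 in every library included *Cyp11b1*, *Cyp11b2*, *Th*, *Dbh* and *Hbb-bs*. Values of some listed genes are not reported here.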

Additional observations from a re-analysis of the deposited data

Results flagged for a closer look

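The diet effect on *Gfra1* in females minus that in males, 4.21 on the log2 scale, differed from 0 in the test of the interaction (edgeR adjusted p = 0.0158). All 5 LP males were below all 5 NP males, while LP and NP females overlapped. In 30 checks of the highest or lowest library within the 3 groups of 5, for 10 members, none stood apart by Dixon's criterion, which chance alone would pass in about 1 in 20 groups.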

How the results depend on the processing

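Leaving out each library in turn gave 1 member called in males every time, 0 in females, 0 to 1 in the interaction (0 without LP male 3 or NP female 3) and 1 to 2 between the sexes. Over all genes these fits called 2 to 6 in males, 0 to 2 in females, 0 to 4 in the interaction and 2218 to 2616 between the sexes, and of the pathway list 0, 0, 0 and 11 to 15.

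*Gfra1* in males kept its direction and its call in all alternatives run. Genes called in males numbered 15 with DESeq2, 9 with no filter on low counts, 2 with the replicate block and 1 with all 4 groups in 1 model. In females they numbered 9 with DESeq2, 3 with no filter, 2 with all 4 groups in 1 model and 1 without the 3 females that stand apart. DESeq2 called 1 pathway gene in males, *Ncam1*. In the interaction, DESeq2 called 4 genes. The replicate block, the sum of the stranded columns with and without NP female 3, and the fit without the 3 females each called 0 members and 0 genes. There the *Gfra1* difference was 4.18, 3.62, 3.72 and 3.92. Between the sexes, 2 members were called with DESeq2, with no filter, with the replicate block, without the 3 females, within LP mice and by adjusted p alone, and 3 with a mean of at least 10 counts or filterByExpr. Within LP mice, a contrast chosen after seeing the data, 1503 genes were called and the *Gfra1* sex difference was -1.39 against 0.71 over both diets. By adjusted p alone, 4900 genes and 23 pathway genes passed. The cause of these changes was not tested.

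Samples with the same replicate number share only a number: in 5 male pairs their deviations from the group means correlated at -0.30 to 0.33, with a median of -0.15, and 1 of the 5 LP males correlated best with the NP male of its own number. In 3 female pairs the range was -0.61 to -0.39. With the number as a block, *Gfra1* in males was -3.49 with an adjusted p of 0.0217. The counts of *Gdnf*, *Gfra2*, *Fgf7*, *Fgf10* and *Ret* are too low to limit a difference closely. TPM from the longest transcript gave the same order of the members.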
